A study of Mus musculus with 9 samples.

Results

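The genes described here encode proteins that coat the lipid droplets of the liver cell or control the release of fat from them. They were chosen by name, and all 10 were found among the 24008 genes of the count table. All 10 passed the filter on low counts, which left 14379 genes for testing. They are the perilipins Plin2, Plin3, Plin4 and Plin5, the CIDE family Cidea, Cideb and Cidec, the lipase Pnpla2 with its inhibitor G0s2, and the related patatin-domain gene Pnpla3.

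RNA was sequenced from liver pieces of 9 mice, with 1 library per mouse and 3 mice per group, and all 9 mice were fed a high fat and high carbohydrate diet to induce nonalcoholic steatohepatitis (NASH). The Flox group is the control, whose genotype the labels give as WT. F4MKO mice lack the transcription factor IRF4 in skeletal muscle, and F4MKO+FSTL1 mice carry the same deletion with the secreted protein FSTL1 overexpressed in muscle, by injection into the gastrocnemius of an AAV8 vector with the muscle promoter MCK. The study's methods give AAV-GFP to the other groups, which the labels do not mention. The deletion was made with the Cre line that the study's reporting summary names Myl-Cre, and all mice had a C57BL/6J background. That summary describes the study's mice as young adult males in a single entry, while other entries name males alone or both sexes. It gives no sex for each library and no age at sampling, and the sources differ on the length of the diet before injection. The deletion and the transgene are both in muscle, so every difference between these livers is a difference in a tissue that was not itself targeted. The p-values below set a difference between groups against the spread between mice of a group. That spread was estimated from all 9 libraries together, with 3 mice per group.

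A lipid droplet is a store of triglyceride and cholesteryl ester inside a single layer of phospholipid. Perilipins cover this surface and limit the access of lipases. CIDE proteins sit where droplets touch and move lipid from the smaller to the larger droplet. Pnpla2, also called ATGL, cuts the first fatty acid from triglyceride, and G0s2 binds it and blocks its activity. In the fatty liver several genes of this group, Cidea and Cidec among them, are known to be raised together with the stored fat.

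Library totals lay between 20656976 and 24322984 counts. Hepatocyte marker genes summed to 81480 to 98850 normalized CPM (counts scaled to the size of each library) in 8 libraries and to 67680 in F4MKO 1. Most of each sum was Alb alone, at 48830 to 75380 CPM, so the other hepatocyte markers weighed little in it. Cholangiocyte markers summed to 50.7 to 88.9 CPM in Flox, 160 to 430 in F4MKO and 36.1 to 53.9 in F4MKO+FSTL1. Their highest sum was in F4MKO 1, where Spp1 alone gave 397 CPM. Macrophage markers summed to 386 to 596 CPM in Flox, 511 to 613 in F4MKO and 249 to 351 in F4MKO+FSTL1, and stellate cell markers to 128 to 154, 185 to 254 and 87.9 to 122. The stellate cell sums did not overlap between any of the 3 groups. Cholangiocyte sums were higher in F4MKO than in both other groups, which overlapped. Macrophage sums were lowest in F4MKO+FSTL1 and overlapped between Flox and F4MKO, and hepatocyte sums overlapped in all groups. The part of these sums in the results below was not tested. In whole tissue fewer cells of a type and less RNA per cell cannot be told apart. Liver Irf4 counts were 101 to 132 in Flox and 120 to 130 in F4MKO, and 10, 92 and 116 in F4MKO+FSTL1 1 to 3, so F4MKO+FSTL1 1 stood apart. Liver Fstl1 was at 6.15 to 7.62 CPM in Flox, 9.80 to 16.1 in F4MKO and 3.22 to 5.33 in F4MKO+FSTL1. Neither gene checks a change made in muscle.

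None of the 10 genes passed the test between F4MKO and Flox. Of the 10, 2 rose in F4MKO+FSTL1 against F4MKO, the CIDE gene Cidea and the lipase inhibitor G0s2, and none fell. No gene of the 10 was called between F4MKO+FSTL1 and Flox. A gene was called at an adjusted p under 0.05 (edgeR's quasi-likelihood test, adjusted by Benjamini-Hochberg over all 14379 genes) together with a fold change above 1.5. Of all genes tested, 0.271% were called between F4MKO and Flox (0.202% higher and 0.0695% lower), 14.4% between F4MKO+FSTL1 and F4MKO (3.21% higher and 11.2% lower) and 0.00695% between F4MKO+FSTL1 and Flox. At an unadjusted p under 0.05 the 10 genes gave 0, 4 and 4 in these comparisons, where all genes gave 16.9%, 35.3% and 13.4%. Groups that did not overlap were found for 0, 2 and 2 of the 10, against 21.8%, 39.0% and 18.2% of all genes. DESeq2 called 0, 1 and 1 of the 10, where it called 338, 2127 and 284 of all genes. Their median log2 fold changes were 0.02, -0.08 and -0.02, and those of all genes were -0.003, 0.01 and 0.

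**Figure D1:**
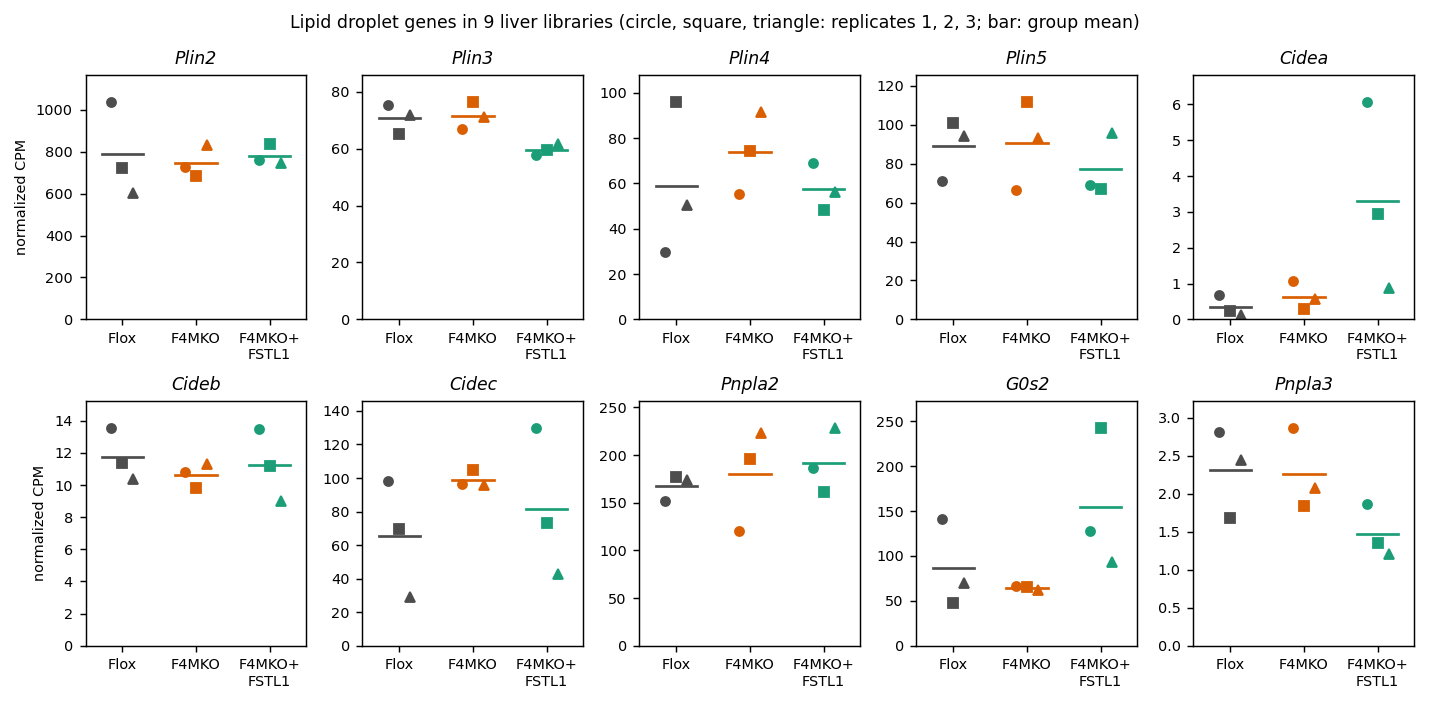
Normalized CPM (linear axes from 0) of the 10 lipid droplet genes in each liver library, by group; circles, squares and triangles are replicates 1, 2 and 3 and bars are group means. G0s2 was higher in every F4MKO+FSTL1 library (93.3 to 243 CPM) than in every F4MKO library (62.5 to 66.6), while Cidea in F4MKO+FSTL1 3 (0.888) lay below F4MKO 1 (1.06).

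Perilipins coat the droplet. Plin2, the main perilipin of hepatocytes, was at 1039, 721 and 604 CPM in the Flox libraries, 730, 686 and 830 in F4MKO, and 759, 837 and 746 in F4MKO+FSTL1. The 3 groups overlapped, and the widest spread was within Flox. The fitted log2 fold change was -0.07 ± 0.18 (SE) for F4MKO against Flox, with a 95% interval from -0.46 to 0.32, and 0.06 ± 0.18 for F4MKO+FSTL1 against F4MKO, with an interval from -0.33 to 0.45. Both intervals lie within a change of 1.5-fold in either direction.

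Plin3, a perilipin that moves between cytosol and droplet, was measured most tightly. It stood at 75.2, 65.2 and 72.0 CPM in Flox, 66.9, 76.5 and 71.2 in F4MKO, and 57.7, 59.6 and 61.5 in F4MKO+FSTL1. All 3 F4MKO+FSTL1 libraries lay below all 6 others. Groups that do not overlap in this direction are common here, at 21.1% of all genes in the comparison with F4MKO and 10.7% in that with Flox. The difference from F4MKO was -0.26 ± 0.09 (SE, log2; edgeR adjusted p = 0.0597), and that from Flox was -0.25 ± 0.09 (edgeR adjusted p = 0.261). Neither passed the test, and both were smaller than 1.5-fold.

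Plin4, a long perilipin that is most abundant in fat and muscle, ran from 29.8 to 96.0 CPM within Flox alone, with 55.2, 74.2 and 91.7 in F4MKO and 69.0, 48.1 and 56.0 in F4MKO+FSTL1. Plin5, which tethers droplets to mitochondria, was at 71.2, 101 and 94.5 in Flox, 66.7, 112 and 93.4 in F4MKO, and 69.3, 67.2 and 95.6 in F4MKO+FSTL1. For both genes every pair of groups overlapped. Against F4MKO the F4MKO+FSTL1 group differed by -0.35 ± 0.34 for Plin4 and by -0.23 ± 0.20 for Plin5 on the log2 scale, with 95% intervals from -1.09 to 0.38 and from -0.67 to 0.21. Both intervals reach beyond a 1.5-fold fall, so with 3 mice per group a fall of that size was not excluded for either gene. Exons of Plin4 overlap those of Hdgfl2 on the opposite strand, and since the use of strand in the counting is not given in the sources used here, its counts are uncertain.

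The CIDE family controls droplet size. Cidea, best known from brown fat, where it enlarges droplets, was the least abundant of the 10 in Flox and F4MKO and changed most. It had 15, 6 and 3 counts in the Flox libraries, 30, 7 and 14 in F4MKO, and 130, 61 and 17 in F4MKO+FSTL1. As CPM these were 0.669, 0.246 and 0.133, then 1.06, 0.293 and 0.559, and then 6.07, 2.93 and 0.888. Both high values belonged to F4MKO+FSTL1 1 and 2, while F4MKO+FSTL1 3 lay inside the F4MKO range. The log2 fold change against F4MKO was 2.34 ± 0.65 (SE), a 5.07-fold difference in the fit, with a 95% interval from 0.91 to 3.78 (edgeR adjusted p = 0.027).

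The Cidea call did not hold when certain single libraries were left out. It was lost without F4MKO+FSTL1 1, the library with the low Irf4 count, where the log2 fold change fell to 1.56 (edgeR adjusted p = 0.112). It was lost too without F4MKO 2, F4MKO 3 or F4MKO+FSTL1 2, with adjusted p = 0.0785, 0.0654 and 0.0616 and log2 fold changes of 2.02, 2.25 and 2.43. Leaving out F4MKO 1 gave 2.94, and the call remained (edgeR adjusted p = 0.0401). Against Flox all 3 F4MKO+FSTL1 libraries were higher than all 3 Flox libraries, as were those of 7.44% of all genes. That log2 fold change of 3.24 ± 0.73 did not pass the test with edgeR (adjusted p = 0.103) and did with DESeq2 (adjusted p = 0.00056). Without F4MKO+FSTL1 1 it was 2.45 (edgeR adjusted p = 0.275), without Flox 1 it was 4.08 (edgeR adjusted p = 0.127), and without F4MKO+FSTL1 3 it was 3.68 and called (edgeR adjusted p = 0.0317). Between F4MKO and Flox the Cidea groups overlapped, and the 95% interval of -0.91 to 2.69 (log2) was the widest of the 10.

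Cideb, the CIDE member typical of hepatocytes, which helps to load very-low-density lipoprotein, stayed between 8.98 and 13.6 CPM in all 9 libraries. Its log2 fold changes were -0.14 ± 0.16 (SE) for F4MKO against Flox and 0.08 ± 0.16 for F4MKO+FSTL1 against F4MKO, with the 95% intervals of both inside a 1.5-fold change. Exons of Cideb overlap those of Nop9 on the opposite strand, which leaves its counts uncertain. Cidec, which is known as Fsp27 and as a target of PPARγ in the fatty liver, was at 98.1, 69.4 and 28.9 CPM in Flox, 96.5, 105 and 96.1 in F4MKO, and 130, 72.9 and 42.5 in F4MKO+FSTL1. The F4MKO libraries were nearly equal, while the other groups spanned 3.39-fold and 3.05-fold and both reached below them. F4MKO+FSTL1 1 also lay above every F4MKO library. Cidec differed by 0.60 ± 0.41 (log2) between F4MKO and Flox, with a 95% interval from -0.30 to 1.50 (edgeR adjusted p = 0.490), and by -0.28 ± 0.41 between F4MKO+FSTL1 and F4MKO.

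Within the CIDE family Cidea was a small share throughout. Per kilobase of the longest transcript it made up 0.44% to 0.87% of the family's sum in Flox, 0.38% to 1.44% in F4MKO and 2.42% to 5.92% in F4MKO+FSTL1. The shares in F4MKO+FSTL1 were above those of the other groups in each of the 3 libraries. In F4MKO+FSTL1 3 the share was above that of F4MKO 1 through a low Cidec value. There Cidec was at 24.7 CPM per kb against 55.9 to 60.8 in F4MKO, and Cidea itself (0.796) was below F4MKO 1 (0.952). Cidec held 65.9% to 87.9% of the sum and Cideb 11.7% to 33.6% over the 9 libraries.

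Pnpla2 and G0s2 act on each other. Pnpla2 was at 152, 177 and 174 CPM in Flox, 121, 196 and 223 in F4MKO, and 186, 161 and 228 in F4MKO+FSTL1. The groups overlapped in every comparison, with log2 fold changes of 0.10 ± 0.20 (SE), 0.09 ± 0.20 and 0.19 ± 0.20 for F4MKO against Flox, F4MKO+FSTL1 against F4MKO and F4MKO+FSTL1 against Flox. G0s2 was at 141, 48.0 and 69.7 CPM in Flox, 66.6, 65.1 and 62.5 in F4MKO, and 128, 243 and 93.3 in F4MKO+FSTL1. The F4MKO libraries were close together and all below the F4MKO+FSTL1 libraries, as in 18.0% of all genes. Flox 1 lay within the F4MKO+FSTL1 range, so those groups overlapped.

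The rise of G0s2 in F4MKO+FSTL1 against F4MKO was 1.25 ± 0.38 (SE, log2), 2.39-fold in the fit, with a 95% interval from 0.42 to 2.09 (edgeR adjusted p = 0.0385). This was close to the threshold. With DESeq2 the value was 1.27 and the adjusted p = 0.0624. Leaving out F4MKO+FSTL1 2, the highest library, gave 0.77 (edgeR adjusted p = 0.172), and the call was also lost without any 1 of the F4MKO libraries (edgeR adjusted p = 0.105, 0.0847 and 0.0833 for F4MKO 1, 2 and 3) or without F4MKO+FSTL1 1 (edgeR adjusted p = 0.0505). The log2 fold changes in these fits stayed near the value from all libraries, at 1.28, 1.26 and 1.23 without F4MKO 1, 2 and 3 and at 1.38 without F4MKO+FSTL1 1. Against Flox the difference was 0.84 ± 0.38 (edgeR adjusted p = 0.364), and between F4MKO and Flox it was -0.41 ± 0.38 (edgeR adjusted p = 0.617).

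The balance of lipase and inhibitor transcripts varied mostly through G0s2, which spanned 5.06-fold over the 9 libraries against 1.89-fold for Pnpla2. The ratio of Pnpla2 to G0s2 counts was 1.08, 3.70 and 2.495 in Flox, 1.81, 3.003 and 3.57 in F4MKO, and 1.46, 0.665 and 2.45 in F4MKO+FSTL1. Only in F4MKO+FSTL1 2 were there fewer Pnpla2 than G0s2 counts. The groups overlapped, and the ratio was given no test.

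**Figure D2:**
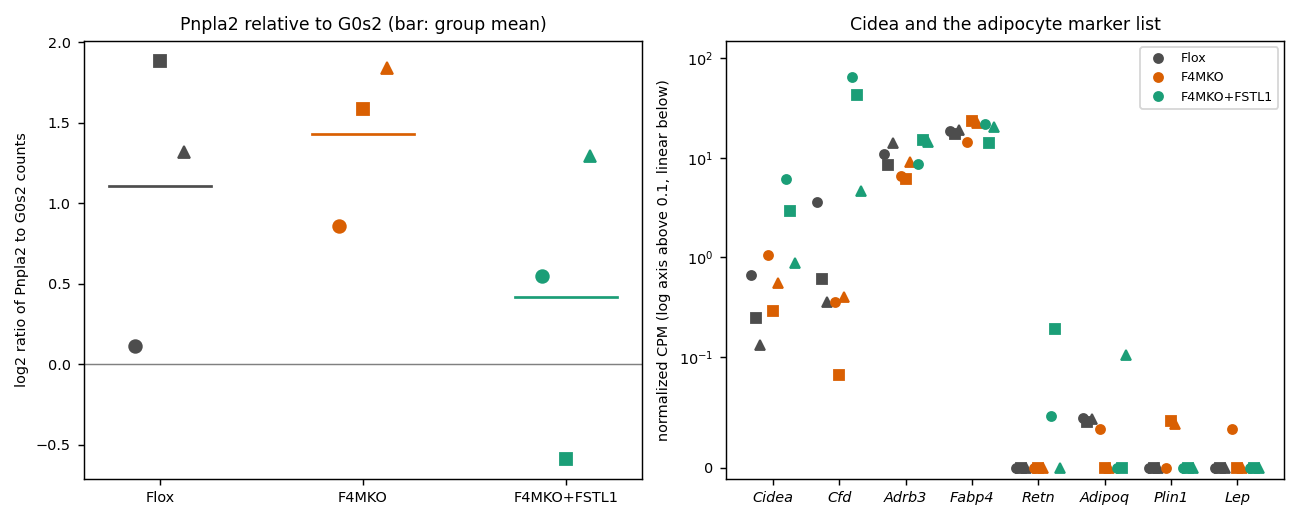
Left, log2 ratio of Pnpla2 to G0s2 counts in each library with the group mean as a bar, where 0 is equal counts; right, normalized CPM of Cidea and the adipocyte marker list (log axis above 0.1, linear below). Circles, squares and triangles are replicates 1, 2 and 3. The ratio lies below 0 in F4MKO+FSTL1 2 alone (-0.59), and Cfd reaches 65.4 CPM in F4MKO+FSTL1 while Adipoq, Lep, Retn and Plin1 stay at or under 0.192 CPM.

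Pnpla3, a droplet-bound lipid hydrolase that responds to feeding, was low. It stood at 2.81, 1.68 and 2.44 CPM in Flox, 2.87, 1.84 and 2.08 in F4MKO, and 1.87, 1.35 and 1.20 in F4MKO+FSTL1. F4MKO+FSTL1 1 overlapped both other groups, and F4MKO+FSTL1 2 and 3 lay below both. The log2 differences of -0.62 ± 0.28 (SE) from F4MKO and -0.64 ± 0.28 from Flox did not pass the test (edgeR adjusted p = 0.137 and 0.352). An exon of Pnpla3 overlaps the gene model Gm49513 on the same strand, so its counts are uncertain.

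**Figure D3:**
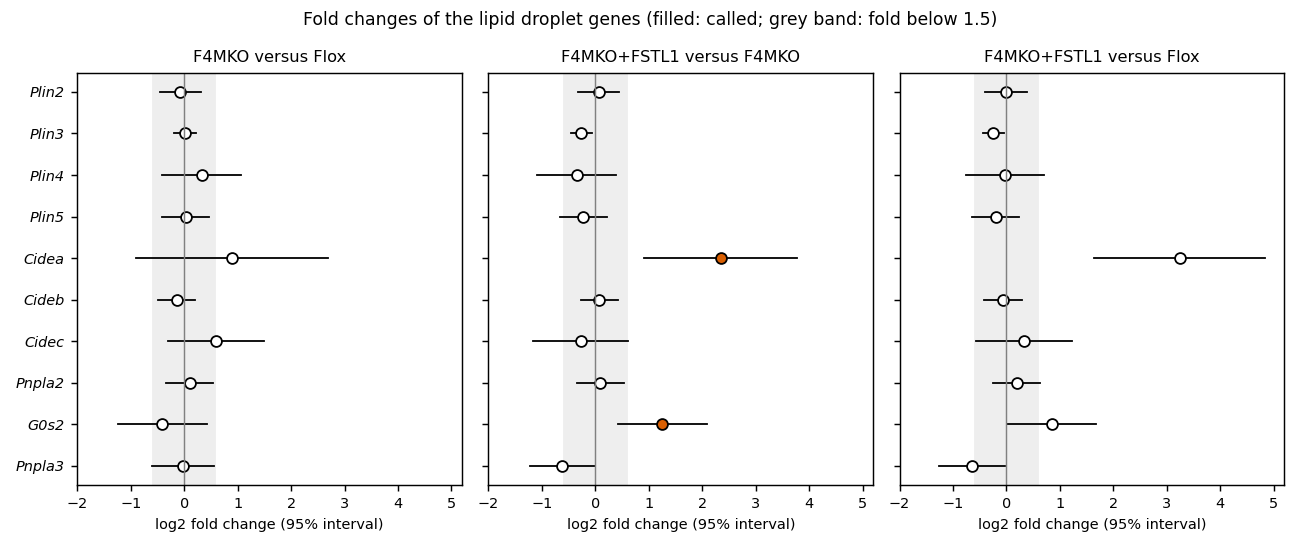
Log2 fold changes (points) and 95% intervals (lines) of the 10 lipid droplet genes from the edgeR fit, in 3 panels by comparison; filled points were called and the grey band marks changes below 1.5-fold. Cidea and G0s2 are called in F4MKO+FSTL1 against F4MKO (2.34 and 1.25), and no gene is called in the other panels.

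The 10 genes differed more in level than any of them differed between groups. Per kilobase of the longest transcript, Plin2 stood highest at 417 ± 119 CPM per kb (SD, n = 3) in Flox, 397 ± 39.1 in F4MKO and 414 ± 25.8 in F4MKO+FSTL1. G0s2 followed at 98.9 ± 55.7, 74.3 ± 2.38 and 177 ± 89.8, and then Pnpla2 at 63.9 ± 5.22, 68.5 ± 20.2 and 73.1 ± 12.9. The values of G0s2 and Pnpla2 overlapped in Flox and F4MKO, where the order of G0s2 and Pnpla2 is within their spread, and in F4MKO+FSTL1 the lowest G0s2 value (107) was above the highest Pnpla2 value (87.0).

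Plin5 (44.8, 45.7 and 39.0 CPM per kb in the group means) and Cidec (38.1, 57.6 and 47.5) came next and overlapped in Flox and F4MKO+FSTL1, where their order is not settled. In F4MKO they overlapped too, with Plin5 up to 56.4 and Cidec from 55.9. Pnpla2 was above both genes in every Flox library. In F4MKO the Pnpla2 range of 46.0 to 85.1 overlapped both, so its place above them is not settled there. In F4MKO+FSTL1 the lowest Pnpla2 value of 61.4 was above every Plin5 value (up to 48.1). It was under the highest Cidec value of 75.5, so the order of Pnpla2 and Cidec is not settled in that group. In Flox the lowest Cidec value (16.8) was under the Plin3 values (17.9 to 20.6). Plin3 was at 16.3 to 19.6 in the group means, Plin4 at 10.02 to 12.8 and Cideb at 8.79 to 9.71. Plin4 and Cideb overlapped in Flox and F4MKO+FSTL1, and in F4MKO every Plin4 value (9.59 to 15.9) was above every Cideb value (8.09 to 9.35). Pnpla3 and Cidea ended the order. In Flox and F4MKO every Pnpla3 value (1.28 to 2.18 CPM per kb) was above every Cidea value (0.119 to 0.952). In F4MKO+FSTL1 they overlapped, with Pnpla3 from 0.915 to 1.42 and Cidea from 0.796 to 5.45. Plin2 made up 80.1% to 89.9% of the perilipin sum per length in all 9 libraries, and its share was 84.1% ± 5.03, 83.5% ± 3.13 and 86.3% ± 2.12 (SD, n = 3) in Flox, F4MKO and F4MKO+FSTL1.

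**Figure D4:**
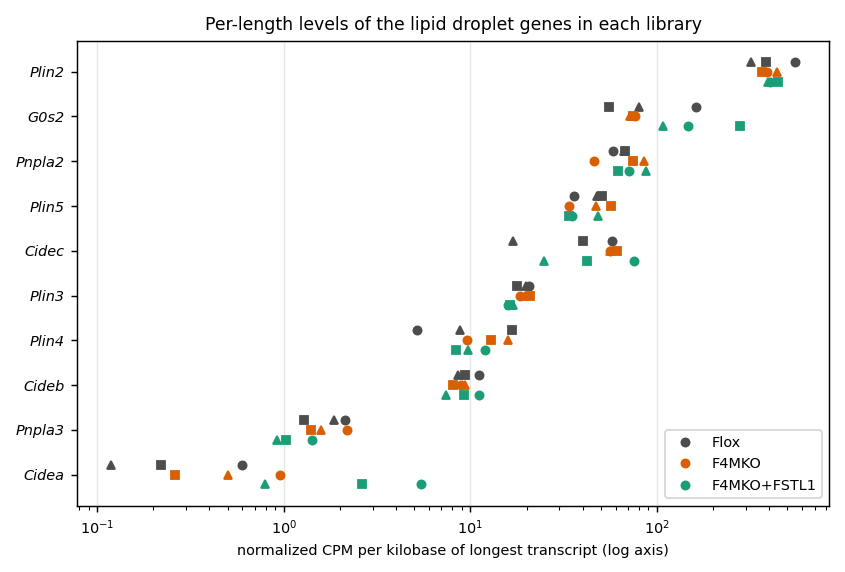
Normalized CPM per kilobase of the longest transcript (log axis) of the 10 genes in each library, ordered by the Flox mean; colours are groups and circles, squares and triangles are replicates 1, 2 and 3. Plin2 leads in every library (320 to 550), and Cidea spreads furthest, from 0.119 to 5.45.

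Spread within a group also differed between the genes. Plin3 varied little in every group, with a coefficient of variation of 7.26%, 6.74% and 3.20% in Flox, F4MKO and F4MKO+FSTL1. Cidea varied most, at 80.9%, 61.2% and 79.2%, and its highest library was 45.6 times its lowest. G0s2 (56.3%, 3.20% and 50.6%) and Cidec (53.1%, 4.84% and 54.2%) shared a pattern in which the F4MKO mice were alike and the others were not. With 3 mice per group this difference in spread was not tested.

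Across the 9 libraries the log2 CPM of Cidea and G0s2 had a Pearson r of 0.71, the highest of the 45 pairs, and Plin3 and Cidea had the lowest, at -0.76. Pnpla2 and G0s2 had an r of -0.16. Plin3, Plin4 and Plin5 lie close together on the same strand of chromosome 17 (mm10, minus strand), with Plin4 at 56100591 to 56109803, Plin5 at 56111601 to 56117596 and Plin3 at 56277476 to 56292873. Plin4 and Plin5 had an r of 0.55, and Plin3 had an r of -0.14 with Plin4 and 0.44 with Plin5. These values are descriptions over 9 points that share the 3 groups and the same normalization. The genes most like Cidea over the 9 libraries were LOC108168347, Inhbe, Slc12a2, LOC108167447 and Cfap97, with r from 0.91 to 0.95. Inhbe encodes a secreted activin subunit made in the liver, and Slc12a2 a sodium, potassium and chloride transporter. Those most like Pnpla3, which had the largest fall of the 10, were Sulf1, Zfp808, Acap1, Ttyh2 and Trpv2, with r from 0.91 to 0.97. Those most like G0s2, which were looked up after its values were seen, were Slc27a4, Hspa8, Thap11, Gm42067 and Keap1, with r from 0.95 to 0.97, where Slc27a4 is a fatty acid transport protein and Hspa8 a constitutive chaperone.

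The other genes of lipid droplet biology were read from 3 lists with 36 genes, of which 35 were tested. The exception was Plin1, the perilipin of fat cells, at 0 to 0.042 CPM. In F4MKO+FSTL1 against F4MKO 6 of the 35 were called, 5 higher and 1 lower, where all genes gave 3.21% higher and 11.2% lower. None of the 35 was called in the other comparisons with edgeR. At an unadjusted edgeR p under 0.05 the 35 gave 18 in F4MKO+FSTL1 against F4MKO, where all genes gave 35.3%. They gave 7 in F4MKO against Flox and 4 in F4MKO+FSTL1 against Flox, where all genes gave 16.9% and 13.4%. DESeq2 called 1 in each comparison with Flox, Ces1f and Fitm1, where it called 338 and 284 of all genes.

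Of 10 genes of neutral lipid hydrolysis, 3 rose in F4MKO+FSTL1 against F4MKO and none fell, with a median log2 fold change of 0.42 (0.01 for all genes). Lipe, the hormone-sensitive lipase that acts after Pnpla2, was at 14.9, 14.1 and 16.2 CPM in Flox, 8.63, 13.1 and 13.4 in F4MKO, and 22.9, 18.3 and 21.8 in F4MKO+FSTL1. F4MKO was below and F4MKO+FSTL1 above all Flox values, and the rise from F4MKO was 0.85 ± 0.16 (SE, log2; edgeR adjusted p = 0.00505). Ces1f, a liver carboxylesterase, was at 307, 336 and 422 CPM in F4MKO and 483, 696 and 589 in F4MKO+FSTL1 (0.73 ± 0.16, edgeR adjusted p = 0.00887), and Ldah, a droplet-associated hydrolase, at 42.3, 38.1 and 34.6 and at 60.0, 66.6 and 46.4 (0.59 ± 0.13, edgeR adjusted p = 0.0103). Flox was nearer to F4MKO+FSTL1 than to F4MKO for both, at 509 to 592 CPM for Ces1f and 45.9 to 53.5 for Ldah. Ldah fell under the 1.5-fold limit without F4MKO 3 (0.52), F4MKO+FSTL1 1 (0.56) or F4MKO+FSTL1 2 (0.48), and with total counts in place of TMM both Ldah (0.39) and Ces1f (0.55) did. Abhd5, the coactivator of Pnpla2 known as CGI-58, was at 30.1 to 33.1 CPM in F4MKO and 31.5 to 40.4 in F4MKO+FSTL1, with a log2 difference of 0.13 ± 0.20 that did not pass the test. Hilpda, like G0s2 an inhibitor of Pnpla2, differed by -0.48 ± 0.24 (edgeR adjusted p = 0.176), on the other side of 0 from G0s2.

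Of 15 tested genes of droplet formation and surface, 1 was called higher and 1 lower in F4MKO+FSTL1 against F4MKO. All genes gave 3.21% higher and 11.2% lower. With uncalled genes included, 13 of the 15 lay above 0 and 2 below, with a median log2 fold change of 0.27 (0.01 for all genes). Fitm1, which like Fitm2 helps droplets to bud from the endoplasmic reticulum and is best known from muscle, was at 9.45, 4.51 and 8.08 CPM in Flox, 8.14, 7.62 and 10.2 in F4MKO, and 30.8, 23.7 and 19.6 in F4MKO+FSTL1. All 3 F4MKO+FSTL1 libraries were above the other 6. Of all genes, 18.0% were above F4MKO in this way and 7.44% above Flox. The log2 fold changes were 1.51 ± 0.24 (SE) from F4MKO (edgeR adjusted p = 0.0024) and 1.75 ± 0.25 from Flox (edgeR adjusted p = 0.064). Fitm1 was called in F4MKO+FSTL1 against F4MKO under every alternative tried and with each library left out. Ldaf1, a partner of seipin at the sites where droplets form, listed under its older symbol Tmem159, fell by 0.63 ± 0.17 (log2; edgeR adjusted p = 0.0266), from 3.79, 4.44 and 5.23 CPM in F4MKO to 2.71, 3.27 and 2.72 in F4MKO+FSTL1. The Ldaf1 call was lost without F4MKO 2, F4MKO 3, F4MKO+FSTL1 1 or F4MKO+FSTL1 3 (edgeR adjusted p = 0.0598, 0.0786, 0.079 and 0.0748, log2 fold changes from -0.64 to -0.50) and in a fit of the 6 libraries compared (edgeR adjusted p = 0.0544).

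Of 10 transcription factors that act on these genes, 1 was called higher in F4MKO+FSTL1 against F4MKO, where 3.21% of all genes were. Cebpa, a factor of hepatocyte and fat cell identity, rose by 0.66 ± 0.14 (SE, log2, edgeR adjusted p = 0.00823). It was at 482, 342 and 414 CPM in Flox, 281, 324 and 314 in F4MKO, and 454, 552 and 450 in F4MKO+FSTL1, so that F4MKO lay below both other groups. Cebpa fell under the 1.5-fold limit without F4MKO+FSTL1 2 (0.57) and with total counts in place of TMM (0.47). Pparg, the factor under which Cidea and Cidec are known to be raised in the fatty liver, was at 16.1, 17.4 and 10.3 CPM in Flox, 23.0, 18.3 and 20.4 in F4MKO, and 20.6, 21.2 and 10.1 in F4MKO+FSTL1. Its log2 difference of -0.25 ± 0.26 between F4MKO+FSTL1 and F4MKO did not pass the test (edgeR adjusted p = 0.525). Ppara differed by 0.58 ± 0.16 (edgeR adjusted p = 0.0275), just under the 1.5-fold limit.

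**Figure D5:**
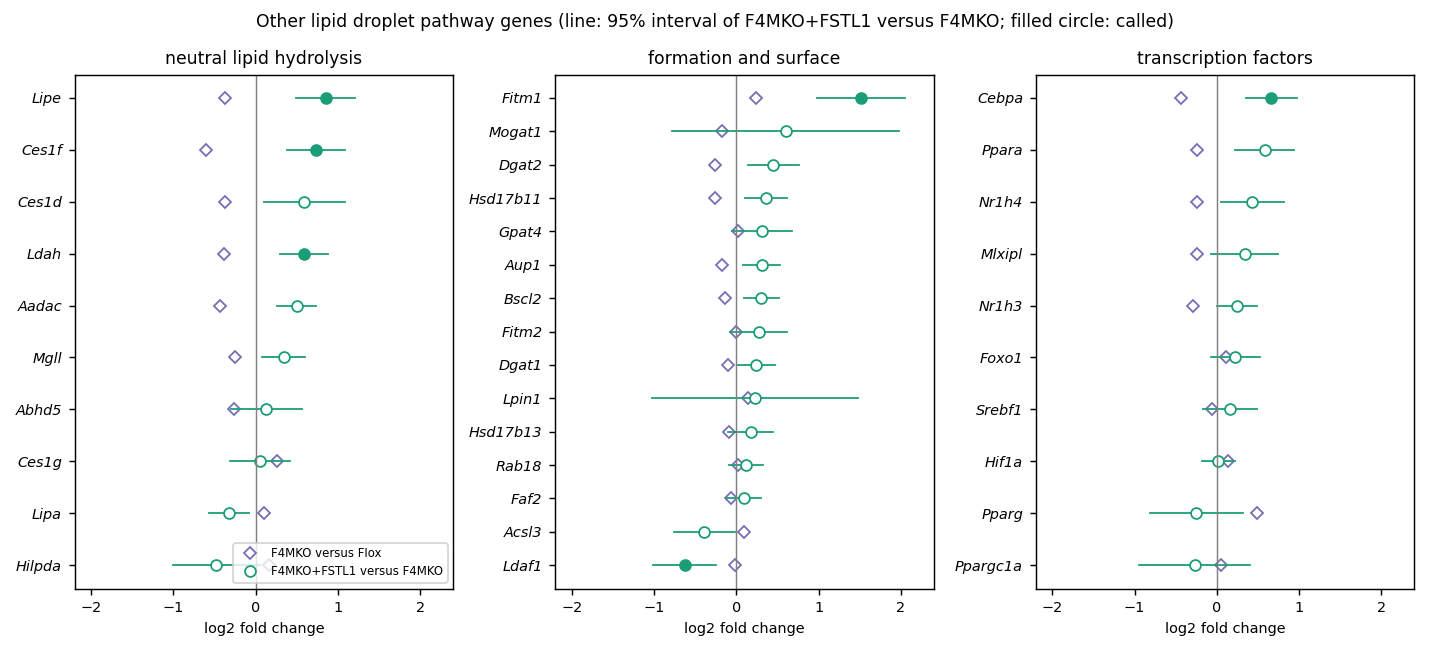
Log2 fold changes of the 35 tested lipid droplet genes outside the main 10, in 3 panels by function; circles with 95% intervals are F4MKO+FSTL1 against F4MKO, filled where called, and diamonds are F4MKO against Flox. The called genes are Lipe, Ces1f and Ldah (0.59 to 0.85), Fitm1 (1.51), Cebpa (0.66) and, on the other side of 0, Ldaf1 (-0.63).

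Cidea and Plin4 are also genes of fat cells. Of 7 adipocyte markers, Adipoq, Lep, Retn and Plin1 were at 0 to 0.192 CPM in every library. Fabp4 ran from 13.9 to 23.2 CPM and Adrb3 from 6.16 to 15.1, with overlapping groups, and Adrb3 rose by 0.80 ± 0.25 (SE, log2) in F4MKO+FSTL1 against F4MKO (edgeR adjusted p = 0.0388). Cfd, which encodes adipsin, was at 3.57, 0.615 and 0.355 CPM in Flox, 0.354, 0.0838 and 0.399 in F4MKO, and 65.4, 42.4 and 4.65 in F4MKO+FSTL1. It moved with Cidea, since within F4MKO+FSTL1 both genes were highest in replicate 1 and lowest in replicate 3. The log2 fold change of Cfd against F4MKO was 7.02 ± 1.10 (SE; edgeR adjusted p = 0.00219). The summed list was at 26.2 to 33.3 CPM in Flox, 21.4 to 32.0 in F4MKO and 39.6 to 96.1 in F4MKO+FSTL1. Which cells gave the Cidea and Cfd transcripts was not tested. Of 6 skeletal muscle markers, Acta1, Ckm, Myh4 and Mb were at 0 to 0.071 CPM in every library, and the summed list stayed at 0.838 to 1.62 CPM.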

How the data were processed

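The authors trimmed 150 bp paired-end BGIseq500 reads with Trim Galore 0.6.7, mapped them to mm10 with HISAT2 2.2.1 and counted them on genes with featureCounts 2.0.1, per the labels and the submitters' processing notes. The deposited values are these raw counts per gene and library. The annotation, the use of strand and the handling of multimapping reads are not given in the sources used here.

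The tests used edgeR 4.0.16 under R 4.3.3: filterByExpr (minimum count 10, minimum total 15), TMM normalization (factors 0.927 to 1.17), and a quasi-likelihood fit of all 9 libraries with a mean per group. Adjusted p-values are Benjamini-Hochberg over 14379 genes. Intervals are 95%. CPM use TMM-scaled library sizes, and log2 CPM for correlations a prior count of 2. DESeq2 1.42.0, which the authors used, was an alternative. Lengths and exon overlaps came from GENCODE vM21 on GRCm38, the build of mm10. Replicate numbers are those of the labels. On simulated counts for F4MKO+FSTL1 against F4MKO (14189 genes), 80% of 2-fold and 98% of 4-fold changes were recovered and 15 of 13989 unchanged genes were called. The changes were placed only in genes above a minimum mean count. The counts were drawn from the same kind of model as was fitted, with its dispersions, so recovery in real counts or in rarer genes was not tested. Libraries of a group differed by more than counting noise, with a chi-square of at least 22.2 per gene in every pair.

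The 10 genes and the lists were chosen with earlier results of these data known. All 10 are named, and of the 3 pathway lists the called genes, at most 4 per list and comparison. Genes most alike are the 5 of highest Pearson r for the member with the largest rise and that with the largest fall. Abhd5, Hilpda, Pparg, Ppara and G0s2's likeness were added after their values were seen. Alternatives were DESeq2, its size factors in edgeR, total counts without TMM, all listed genes without a filter, a fit of just the 6 libraries compared, a replicate block, no fold threshold, a test against a fold of 1.5, and each library left out. Leaving out both first replicates of F4MKO and F4MKO+FSTL1 was chosen after seeing the data.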

Additional observations from a re-analysis of the deposited data

How the results depend on the processing

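With total counts in place of TMM the median log2 fold change of all genes moved to 0.11, -0.18 and -0.08 in F4MKO against Flox, F4MKO+FSTL1 against F4MKO and F4MKO+FSTL1 against Flox. There Plin2 (0.046) and Pnpla3 (0.11) changed sign in the first comparison and Plin2 (-0.13), Cideb (-0.12) and Pnpla2 (-0.084) in the second. All 5 were small and uncalled in every fit.

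Of the 10 genes, the count called in F4MKO+FSTL1 against F4MKO was 2 and became 1 (Cidea) with DESeq2 or total counts, 0 in a test against a fold of 1.5, 0 without both first replicates (where Cideb was at -0.081 and Pnpla2 at -0.13), and 0 to 2 over the libraries left out in turn. Against Flox it became 1 (Cidea) with DESeq2, without the filter and with the replicate block, and was 0 to 1 over the libraries left out. In F4MKO against Flox it was 0 throughout. Of the 35 pathway genes, 6 became 10 without a fold threshold, 4 with total counts (Ces1f, Ldah and Cebpa lost, Acsl3 gained), 4 in the fit of 6 libraries (Ldah and Ldaf1 lost), 1 (Fitm1) in the test against 1.5, 2 (Ces1f, Fitm1) without both first replicates and 4 to 6 over the libraries left out. The count in F4MKO against Flox became 1 (Ces1f) with DESeq2 or without the filter, and that against Flox in F4MKO+FSTL1 became 1 (Fitm1) with DESeq2, without the filter and with the block, and was 0 to 1 over the libraries left out. The causes were not tested, beyond the fewer libraries or stricter test of each alternative.

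Libraries with the same replicate number are from different mice. The correlations of their deviations ran from -0.10 to 0.30, and not every pair was over 0.1. The pair of replicates 3 was the highest in each comparison. It was at 0.17 in F4MKO against Flox, 0.30 in F4MKO+FSTL1 against F4MKO and 0.21 in F4MKO+FSTL1 against Flox. Whether the numbers mark a shared step of handling was not tested. With the replicate block Plin2 (0.009) and Plin4 (0.10) changed sign against Flox, Cidea was called against Flox (3.19, edgeR adjusted p = 0.0384), Ldah fell under 1.5-fold (0.58), and all genes called went from 39 to 134 in F4MKO against Flox and from 1 to 15 in F4MKO+FSTL1 against Flox.

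For the 10 genes, leaving out 1 library turned the sign of uncalled fold changes only. For F4MKO against Flox the ranges were -0.24 to 0.18 for Plin2, -0.044 to 0.062 for Plin3, -0.15 to 0.21 for Plin5, -0.087 to 0.32 for Pnpla2, -0.70 to 0.14 for G0s2 and -0.23 to 0.14 for Pnpla3. For F4MKO+FSTL1 against F4MKO they were 0.00 to 0.14 for Plin2, -0.073 to 0.22 for Cideb, -0.78 to 0.04 for Cidec and -0.13 to 0.28 for Pnpla2. For F4MKO+FSTL1 against Flox they were -0.17 to 0.24 for Plin2, -0.34 to 0.53 for Plin4, -0.22 to 0.076 for Cideb and -0.18 to 0.74 for Cidec.

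Depth limits Cidea most, with 3 to 130 counts per library, and 3 mice per group limit every gene. All genes called in F4MKO against Flox ranged from 0 to 478 and in F4MKO+FSTL1 against Flox from 0 to 379 over the alternatives, and in F4MKO+FSTL1 against F4MKO from 620 to 3001.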
